A study of Musculus with 2 samples.

Results

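The insulin-like growth factor (IGF) genes described here are 10 of the 32285 genes measured. They were taken by name and not by their values: the ligands Igf1 and Igf2, the receptors Igf1r and Insr, and the binding proteins Igfbp2, Igfbp3, Igfbp4, Igfbp5, Igfbp6 and Igfbp7. They were followed in the stromal vascular fraction of mouse subcutaneous white adipose tissue (sWAT), which is what remains of the digested fat pad once floating adipocytes are spun off and red cells are lysed. Each of 2 groups of mice was profiled as 1 library of 10x Genomics single-cell RNA sequencing. The LPCAT3-AKO library carries the genotype label LPCAT3 knockout, and the Control library carries the label WT. LPCAT3 is an enzyme that remodels membrane phosphatidylcholine. The sample labels give an age of 5 weeks for both, whereas the text of the series gives 2 months and a diet written as CD, so the age is unsettled. How many mice went into a library, which promoter drove any Cre and which exons were deleted is left unstated by the sources used here. With 1 library a group there is no replicate check: every interval below is a 95% interval for counting error only, and no p-value is given.

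IGF-1 and IGF-2 act mainly through the IGF-1 receptor, and insulin through its own, closely related receptor. In extracellular fluid the IGFs are held by binding proteins, which slow or steer their access to the receptor until proteases release them. In adipose tissue, IGF and insulin signals promote the growth and differentiation of preadipocytes, and stromal cells and macrophages are local sources of IGF-1.

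The files held 12806 barcodes with 119355147 unique molecular identifiers (UMIs) in LPCAT3-AKO and 13831 barcodes with 111669076 UMIs in Control, and 58 barcode sequences occurred in both libraries. A cell was kept if it had at least 500 detected genes and no more than 10% mitochondrial UMIs, which left 11664 cells in LPCAT3-AKO and 12426 cells in Control with medians of 8867 UMIs in LPCAT3-AKO and 8366.5 UMIs in Control. Cells were assigned to populations by how many markers of a list they carried, and no member served as a marker. The name of a population stands for cells that look like that type by these markers. The fibroblast gate took 5940 LPCAT3-AKO and 5797 Control cells with 8 or more of 10 markers, of which 204 in LPCAT3-AKO and 181 in Control sat exactly at 8, and a further 253 cells in LPCAT3-AKO and 209 cells in Control carried 7. The macrophage gate took 3161 cells in LPCAT3-AKO and 4188 cells in Control, with 308 in LPCAT3-AKO and 344 in Control at its limit of 6 of 11 markers. No doublet caller was run. Instead, 1014 cells in LPCAT3-AKO and 850 cells in Control with markers of several classes were set apart, except those with endothelial and mural markers together, which were kept as endothelial-mural cells. Endothelial-mural cells had medians of 12693 UMIs in LPCAT3-AKO and 14001 UMIs in Control. Endothelial cells had 4893.5 in LPCAT3-AKO and 5564 in Control, and mural cells 3984 in LPCAT3-AKO and 3432 in Control. Whether endothelial-mural cells include joined cells was not tested. Adipocyte markers were near 0, with Adipoq at 1.501 CPM (counts per 1000000 UMIs) in LPCAT3-AKO and 1.002 CPM in Control. Lpcat3 itself was at 30.8 CPM in LPCAT3-AKO and 27.7 CPM in Control, a level that need not cover the deleted part of the transcript and so does not check the deletion.

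Levels are the UMIs of a gene summed over a population and divided by all UMIs of those cells, in CPM. They compare cells for 1 gene and not genes with one another. A difference between libraries passed the size rule when the higher library reached 20 CPM, the ratio was 1.5 or more either way and its interval left out 1. Of the 10 members, 8 reached 20 CPM in fibroblasts and in endothelial cells. Igf2 and Igfbp2 did not, in any population of 100 or more cells in both libraries. Fewer producing cells and less RNA per cell cannot be told apart where a population mixes states, so fibroblasts and macrophages were also divided.

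**Figure D1:**
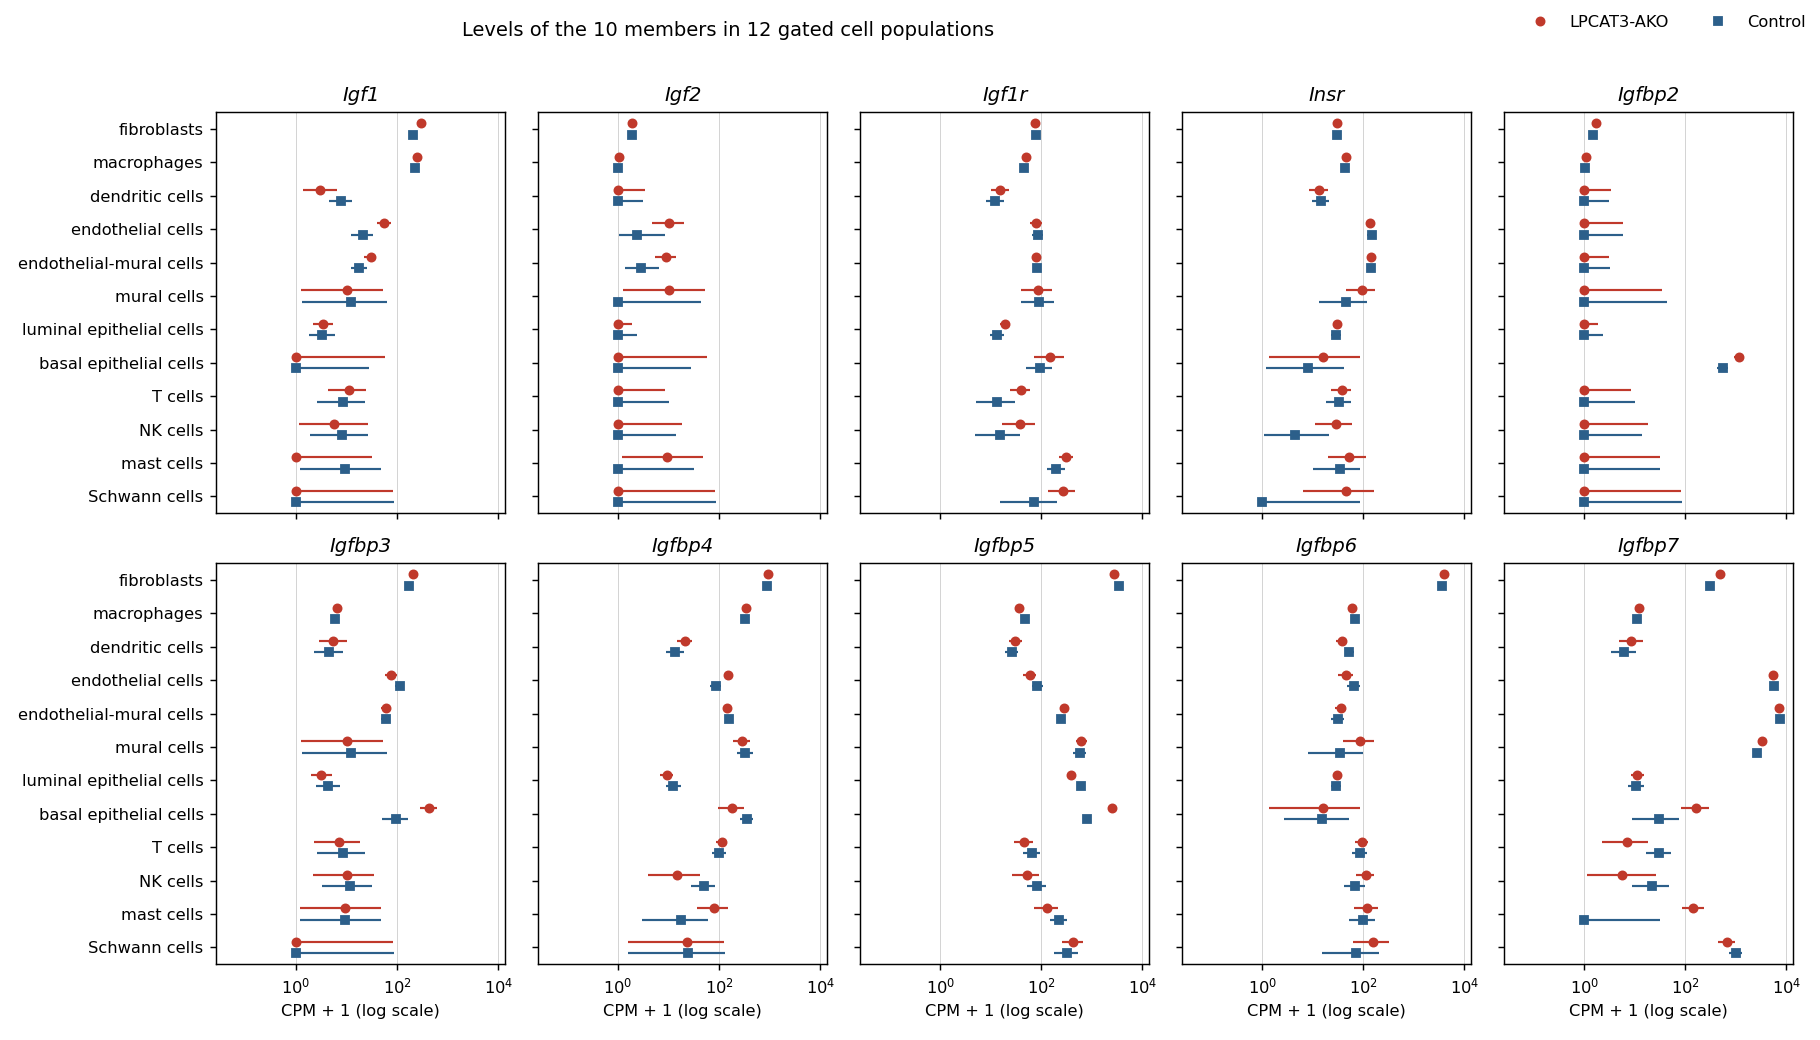
Level of each member in 12 gated populations, in CPM plus 1 on a log axis, with the LPCAT3-AKO library as circles and the Control library as squares; bars are exact Poisson 95% intervals of counting error. Igfbp6 stood highest in fibroblasts, Igfbp7 in endothelial and mural cells, Igfbp2 in basal epithelial cells, and Igf1 in fibroblasts and macrophages.

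Igf1 transcripts came from fibroblasts and macrophages. Fibroblasts had 294 CPM (interval 290 to 299) in the LPCAT3-AKO library, against 206 (202 to 209) in the Control library. Macrophages had 244 CPM (238 to 250) in LPCAT3-AKO and 221 CPM (216 to 227) in Control. Fibroblasts therefore led macrophages in the LPCAT3-AKO library and came after them in the Control library, and in neither library did these intervals overlap. States weighted alike, here and below, means that each state was weighted by the mean of its UMI shares in the 2 libraries. So weighted, fibroblasts had 278 CPM in LPCAT3-AKO and 221 CPM in Control, and macrophages 251 CPM in LPCAT3-AKO and 215 CPM in Control. Fibroblasts were then higher in both libraries, but these weighted levels have no interval. Fibroblasts held 62.1% of all Igf1 UMIs of the LPCAT3-AKO library and 56.1% of those of the Control library, and macrophages held 25.9% in LPCAT3-AKO and 32.6% in Control. Macrophages were 27.1% of LPCAT3-AKO and 33.7% of Control kept cells. Free RNA also gives UMIs in cells that should lack the gene. Dendritic cells, used here for their depth in place of the lymphocytes and mast cells first planned, had 1.90 CPM in LPCAT3-AKO and 6.80 CPM in Control, with a UMI in 1.56% of LPCAT3-AKO and 5.15% of Control cells at medians of 7835.5 and 7289 UMIs per cell. T cells had 10.1 CPM in LPCAT3-AKO and 7.43 CPM in Control, with a UMI in 3.45% of LPCAT3-AKO and 2.63% of Control cells at medians of 2902 and 3043.5 UMIs, and mast cells had 0 UMIs in LPCAT3-AKO and 1 in Control. Among fibroblasts the share of cells with an Igf1 UMI was 54.8% in LPCAT3-AKO and 46.1% in Control at medians of 9259 and 9542 UMIs per cell. It was 28.1% in LPCAT3-AKO and 22.7% in Control when each cell was thinned to 2000 UMIs, a depth that 5850 LPCAT3-AKO and 5707 Control fibroblasts reached.

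**Figure D2:**
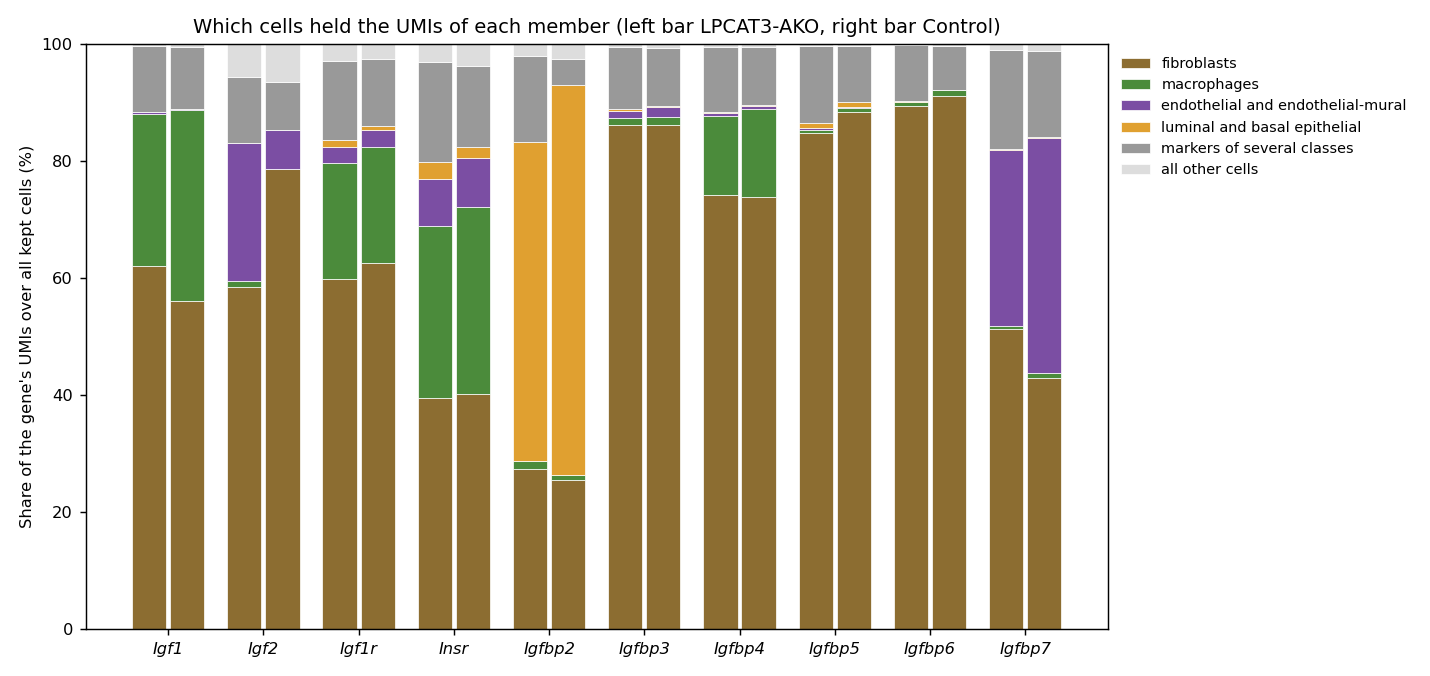
Share of each member's UMIs held by 6 sets of cells, as stacked percentages of all kept cells; the left bar of a pair is the LPCAT3-AKO library and the right bar the Control library. Fibroblasts held 89.4% of Igfbp6 in LPCAT3-AKO and 91.2% in Control, macrophages held 25.9% of Igf1 in LPCAT3-AKO and 32.6% in Control, and epithelial cells held most of Igfbp2.

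Within fibroblasts, Igf1 depended on state. The states were set by lists of 10 markers each for interstitial progenitors (the Dpp4 and Pi16 list, early multipotent cells) and committed preadipocytes (the Col15a1 and Icam1 list, further toward adipocytes), and a list of 6 markers for F3-high fibroblasts, which in other work restrain adipogenesis. Interstitial progenitors had 177 CPM of Igf1 in the LPCAT3-AKO library and 134 in the Control library. Committed preadipocytes had 322 in LPCAT3-AKO and 278 in Control. Cells with both of these lists had 459 in LPCAT3-AKO and 362 in Control, and cells with none of the lists, which were shallower (medians of 5270.5 UMIs in LPCAT3-AKO and 5054 UMIs in Control), had 722 in LPCAT3-AKO and 480 in Control. F3-high fibroblasts, 172 cells in LPCAT3-AKO and 101 cells in Control, had 908 CPM in LPCAT3-AKO and 1000.3 CPM in Control, the highest of the fibroblast states in both libraries. With 0 markers of the F3 list fibroblasts had 145 CPM in LPCAT3-AKO and 104 CPM in Control, and the level climbed with every added marker to 795 CPM in LPCAT3-AKO and 594 CPM in Control at 3 markers. Along the Dpp4 list it went the other way: cells with 9 or 10 of its markers had 106 CPM in LPCAT3-AKO and 70.4 CPM in Control, and cells with 5 or 6 had 559 in LPCAT3-AKO and 452 in Control. The peak at 5 or 6 markers was not seen after thinning to 2000 UMIs, where the level declined from 441 CPM in LPCAT3-AKO and 371 CPM in Control at 0 to 2 markers to 151 CPM in LPCAT3-AKO and 118 CPM in Control at 5 or 6.

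Over all fibroblasts Igf1 was 1.43 times higher in the LPCAT3-AKO library (interval 1.397 to 1.47), short of the ratio of 1.5. With the states weighted alike in both libraries the levels were 278 CPM in LPCAT3-AKO and 221 CPM in Control, a ratio of 1.254. The state shares differed: interstitial progenitors were 57.7% of LPCAT3-AKO and 69.2% of Control fibroblasts, and committed preadipocytes were 21.9% in LPCAT3-AKO and 14.9% in Control. The ratio was 1.32 in interstitial progenitors, 1.27 in cells with both lists, 1.16 in committed preadipocytes and 1.51 (1.41 to 1.61) in cells with none of the lists. In that last group Igf1 was the only member of 8 to pass the size rule, where 4.70% of all tested genes passed it and 2.81% were higher. In F3-high fibroblasts the ratio was 0.907 (0.837 to 0.984). That direction turned when the state was taken by its 3 leading markers, which gave 651 CPM in 389 LPCAT3-AKO cells and 570 CPM in 331 Control cells. Taken in the same way, cells with both lists had 487 CPM in LPCAT3-AKO and 502 CPM in Control, so their direction turned too.

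**Figure D3:**
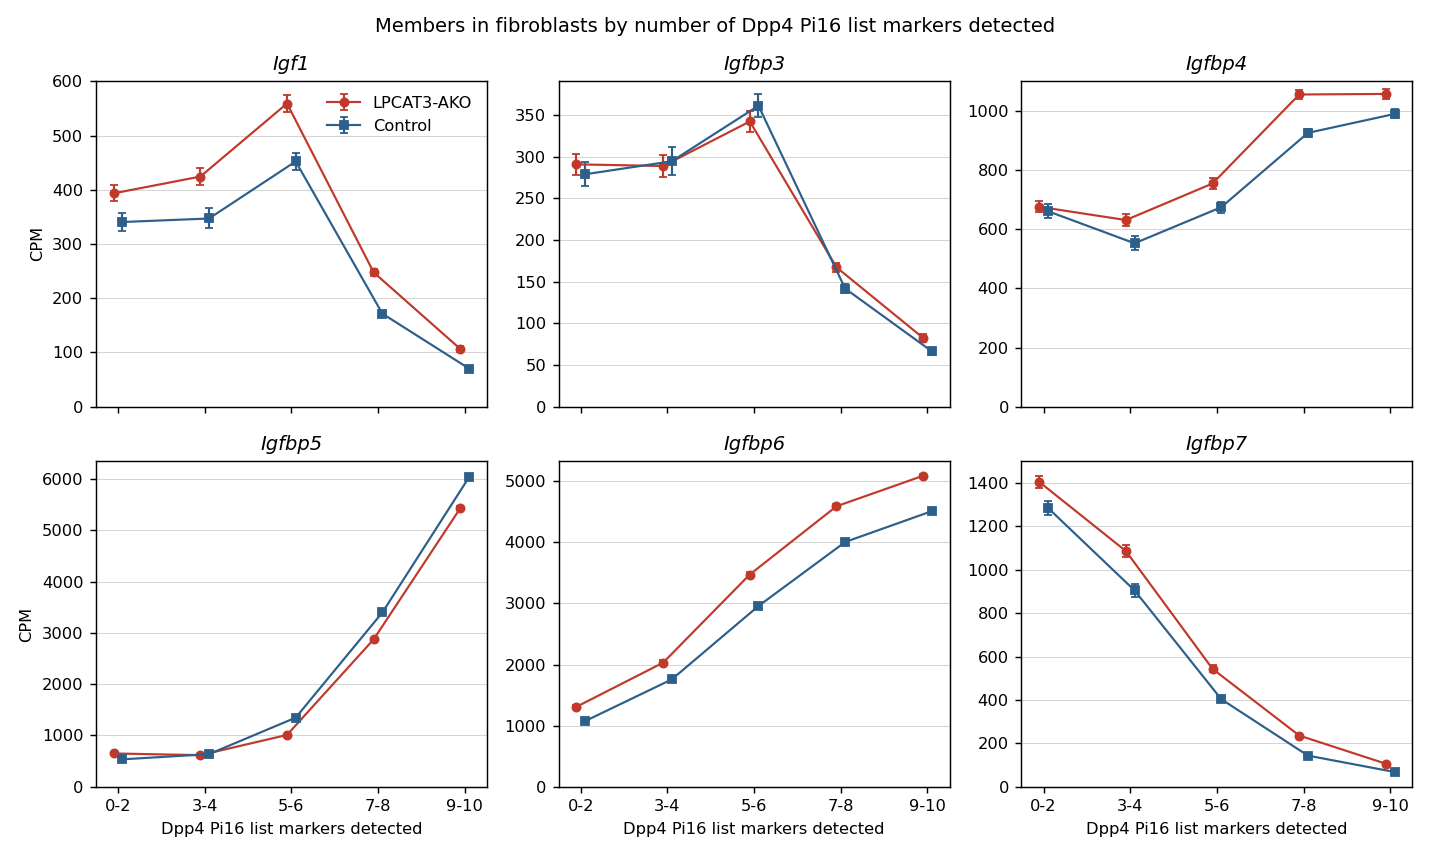
Levels of 6 members in fibroblasts, in CPM, against the number of Dpp4 list markers detected per cell, with LPCAT3-AKO as circles and Control as squares; bars are exact Poisson 95% intervals. Igfbp6 climbed along the whole list and Igfbp5 from 3 or 4 markers on in both libraries, Igfbp7 ran from 1404 CPM at 0 to 2 markers to 106 CPM at 9 or 10 in LPCAT3-AKO and from 1285 to 68.2 CPM in Control, and Igf1 and Igfbp3 peaked at 5 or 6 markers. Neither peak was seen after thinning to 2000 UMIs. Igfbp3 then had 338.6 CPM in LPCAT3-AKO and 347.8 CPM in Control at 0 to 2 markers. At 5 or 6 markers it had 130.2 CPM in LPCAT3-AKO and 103.2 CPM in Control.

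In macrophages Igf1 was highest in the resident state. Resident macrophages, with 5 or more of 7 markers such as Lyve1, Folr2 and Timd4, had 339.5 CPM of Igf1 in the LPCAT3-AKO library (interval 331 to 348) and 287 in the Control library (279 to 294). Lyve1-low macrophages had 38.8 CPM in LPCAT3-AKO and 41.7 CPM in Control, and monocytes had 27.3 in LPCAT3-AKO and 19.7 in Control. Cells with 4 of the 7 markers lay between, at 176 CPM in LPCAT3-AKO and 178 CPM in Control. The ratio in resident macrophages was 1.19 (1.14 to 1.23), and no member of 6 tested passed the size rule there (2.28% of all genes did) or in all macrophages (1.88%). Dividing macrophages, 273 cells in LPCAT3-AKO and 138 cells in Control, had Igf1 at 106 CPM in LPCAT3-AKO and 56.1 CPM in Control, a ratio of 1.89 (1.52 to 2.36), and Igfbp4 at 175 CPM in LPCAT3-AKO and 115 CPM in Control, a ratio of 1.53. Both of these passed the rule, 2 of 6 members, and 8.53% of all genes were higher by it. Of these dividing cells, 139 in LPCAT3-AKO and 39 in Control were resident, and the dividing resident cells alone had Igf1 at 191 CPM in LPCAT3-AKO and 158 CPM in Control, a ratio of 1.203 (0.934 to 1.57), and Igfbp4 at 316.5 CPM in LPCAT3-AKO and 349.8 CPM in Control.

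**Figure D4:**
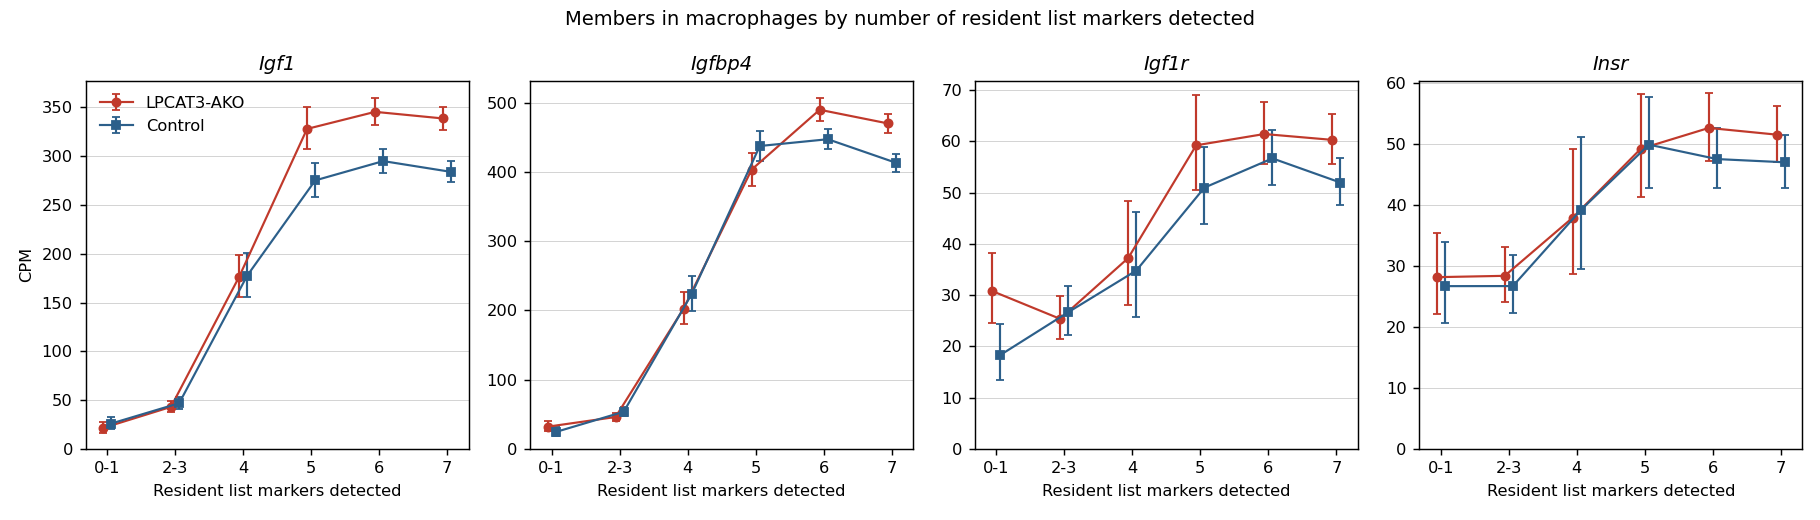
Levels of Igf1, Igfbp4, Igf1r and Insr in macrophages, in CPM, against the number of resident list markers detected per cell, with LPCAT3-AKO as circles and Control as squares; bars are exact Poisson 95% intervals. Igf1 was 21.3 CPM in LPCAT3-AKO and 25.9 CPM in Control at 0 or 1 marker, and 339 CPM in LPCAT3-AKO and 284 CPM in Control at 7 markers, and Igfbp4 followed the same course.

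Vessel cells carried little Igf1. Endothelial cells, 116 in LPCAT3-AKO and 115 in Control, had 41 Igf1 UMIs in the LPCAT3-AKO library and 15 in the Control library, or 54.5 CPM in LPCAT3-AKO and 19.7 CPM in Control, a ratio of 2.77 (1.502 to 5.39). Endothelial-mural cells had 51 UMIs in LPCAT3-AKO and 27 UMIs in Control, or 28.8 CPM in LPCAT3-AKO and 16.9 CPM in Control, a ratio of 1.71 (1.05 to 2.83). In the endothelial cells, the fibroblast markers (a median of 3 of 10 detected per cell) summed to 677 CPM in LPCAT3-AKO and 651 CPM in Control, and the macrophage markers to 255 CPM in LPCAT3-AKO and 266 CPM in Control. In the endothelial-mural cells the fibroblast markers (5 of 10) summed to 1396 CPM in LPCAT3-AKO and 1138 CPM in Control. Their part in the result was not tested. Both calls were lost when cells were thinned to 2000 UMIs, with a log2 ratio of 1.64 in endothelial cells, against 1.43 unthinned, and of -0.02 in endothelial-mural cells, against 0.74. The call in endothelial cells was also lost with a stricter gate, at a log2 ratio of 0.63. The stricter gate asked for more markers of every class. A cell then needed more markers of another class to be set apart, so cells with some of these markers could also enter.

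Igf2, the growth factor that dominates before birth and is expressed from the paternal allele, was close to absent. It had 89 UMIs in the whole LPCAT3-AKO library and 61 in the Control library, of which fibroblasts held 52 in LPCAT3-AKO and 48 in Control, at 0.905 CPM in LPCAT3-AKO and 0.862 CPM in Control. Endothelial-mural cells had 14 UMIs in LPCAT3-AKO and 3 UMIs in Control, and 11 of the 14 lay in 1 cell. Endothelial cells had 7 in LPCAT3-AKO and 1 in Control.

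Igf1r, the receptor for both growth factors, was found in most cell types. Mast cells had 37 UMIs in LPCAT3-AKO and 24 UMIs in Control, or 313 CPM (interval 221 to 432) in the LPCAT3-AKO library and 198 CPM (127 to 294) in the Control library, the highest level of the 12 populations plotted in both libraries, although the intervals reach those of the sparse Schwann and basal epithelial cells and, in Control, of mural cells. Endothelial cells had 78.4 CPM in LPCAT3-AKO and 83.8 CPM in Control, endothelial-mural cells 77.3 in LPCAT3-AKO and 80.7 in Control, and fibroblasts 75.1 in LPCAT3-AKO and 76.7 in Control. The order of these 3 is not resolved, since their intervals overlap within each library. Macrophages had 49.7 CPM in LPCAT3-AKO and 45.4 CPM in Control, where resident cells had 60.5 in LPCAT3-AKO and 53.5 in Control, and Lyve1-low cells 29.1 in LPCAT3-AKO and 23.9 in Control. Dendritic cells had 14.6 CPM in LPCAT3-AKO and 11.3 CPM in Control and luminal epithelial cells 17.8 in LPCAT3-AKO and 12.5 in Control. In fibroblasts the ratio between libraries was 0.98 (0.939 to 1.02), and across the 5 fibroblast states it lay between 0.896 in committed preadipocytes and 1.05. Interstitial progenitors had more Igf1r (86.1 CPM in LPCAT3-AKO and 82.1 CPM in Control) than committed preadipocytes (54.1 in LPCAT3-AKO and 60.4 in Control), with intervals apart in both libraries. In T cells Igf1r had 19 UMIs in LPCAT3-AKO and 5 UMIs in Control, a ratio of 3.10 (1.12 to 10.6). That log2 ratio of 1.56 was 0.73 with a stricter gate and 0.87 with cells of several classes kept, and neither passed the size rule, nor did the 1.38 with each cell weighing alike. Thinned to 2000 UMIs it was 2.22 and passed.

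Insr, the insulin receptor, was highest in endothelial and endothelial-mural cells. Endothelial cells had 137 CPM (112 to 166) in the LPCAT3-AKO library and 145 (120 to 175) in the Control library, and endothelial-mural cells had 139 in LPCAT3-AKO and 138 in Control. The few mural cells had 93.05 CPM (44.62 to 171.1) in LPCAT3-AKO and 45.12 CPM (12.29 to 115.5) in Control. Macrophages had 44.1 CPM in LPCAT3-AKO and 42.1 CPM in Control, fibroblasts 29.9 in LPCAT3-AKO and 28.5 in Control, luminal epithelial cells 29.1 in LPCAT3-AKO and 27.9 in Control, and dendritic cells 12.1 in LPCAT3-AKO and 13.6 in Control. The levels of the 2 libraries overlapped within counting error in each of these populations. Ratios were 0.941 in endothelial cells (0.713 to 1.24), 1.05 in fibroblasts (0.977 to 1.12) and 1.05 in macrophages (0.969 to 1.13). A ratio of 1.5 lay outside each of these intervals, which cover counting error only. With 1 library a group they cannot exclude such a change between the groups. Committed preadipocytes had more Insr than interstitial progenitors (36.2 CPM in LPCAT3-AKO and 34.4 CPM in Control against 26.9 in LPCAT3-AKO and 26.5 in Control), the opposite order to Igf1r.

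**Figure D5:**
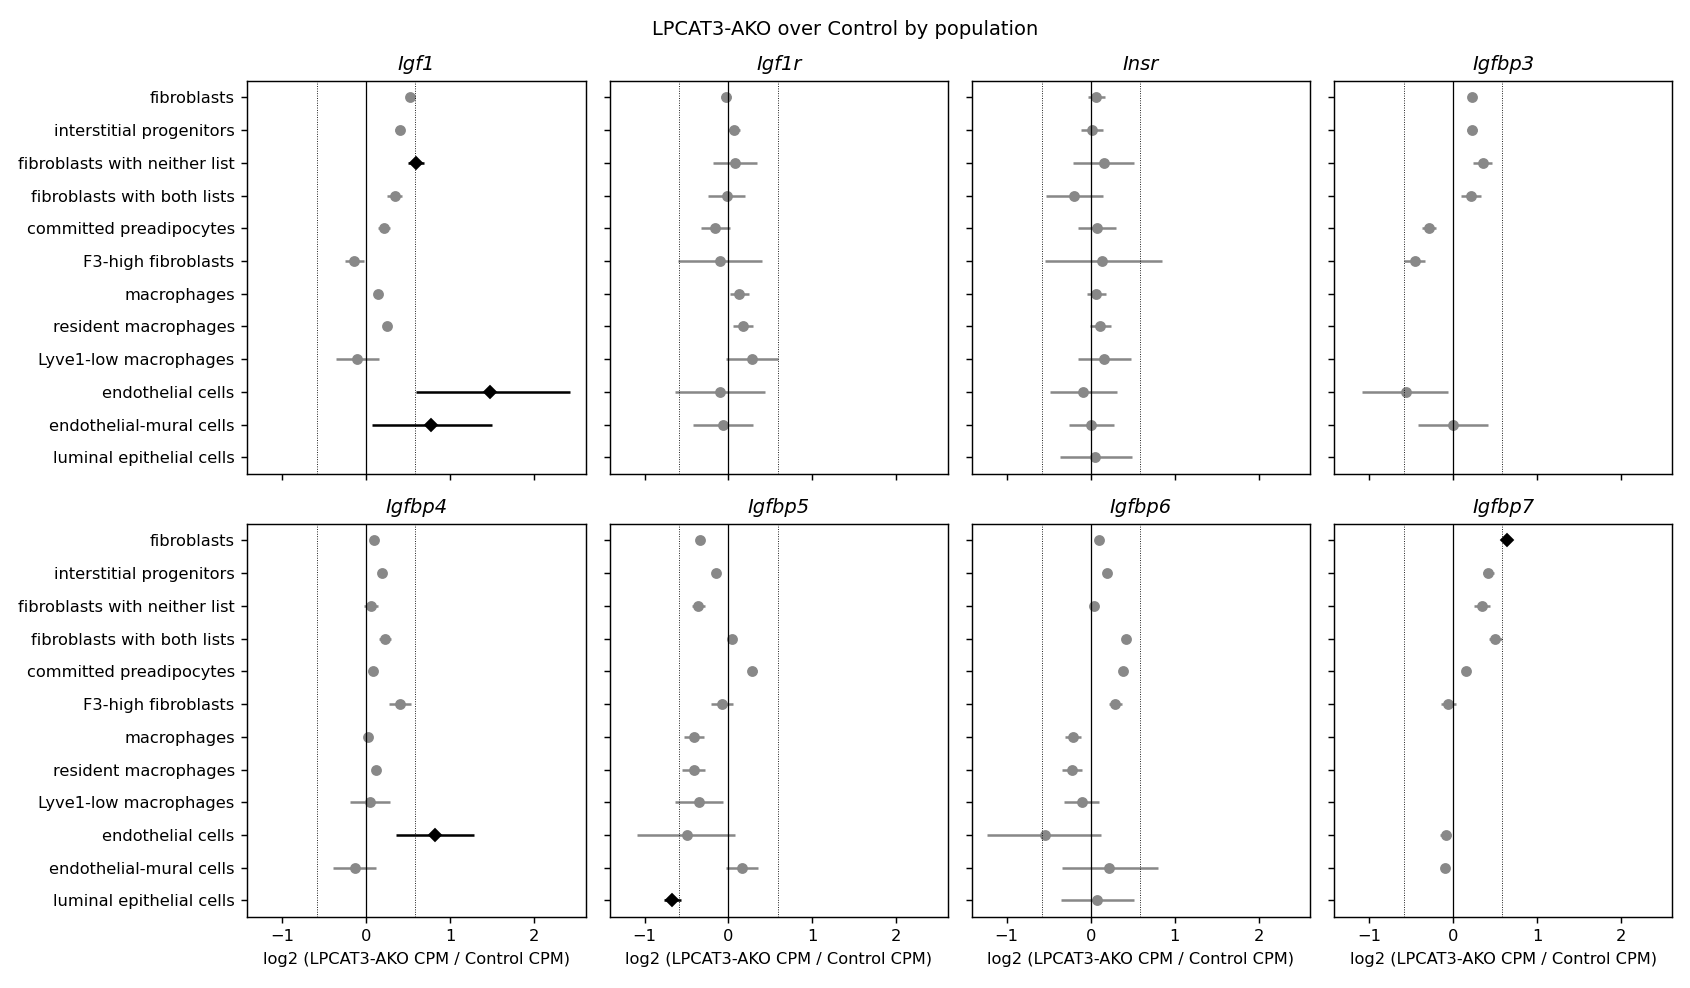
Log2 ratio of CPM, LPCAT3-AKO over Control, for 8 members in 12 populations and states, with exact 95% intervals of counting error; dotted lines mark a ratio of 1.5 either way and black diamonds the values that passed the size rule, and values under 20 CPM in both libraries are not drawn. In fibroblasts the receptors lay near 0, and Igfbp7 in fibroblasts stood at 0.64.

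Of the binding proteins, Igfbp3, Igfbp5 and Igfbp6 UMIs lay mostly in fibroblasts, Igfbp4 also in macrophages, Igfbp7 in fibroblasts and vessel cells, and Igfbp2 in basal epithelial cells. Igfbp2, which carries an integrin-binding motif and is secreted by adipocyte precursors among other cells, had 143 UMIs in the LPCAT3-AKO library and 114 in the Control library. The 6 basal epithelial cells of each library held 78 of these UMIs in LPCAT3-AKO and 76 in Control, or 54.5% in LPCAT3-AKO and 66.7% in Control, at 1169 CPM in LPCAT3-AKO and 548 CPM in Control. Luminal epithelial cells, 188 in LPCAT3-AKO and 137 in Control, had 0. Fibroblasts had 0.678 CPM in LPCAT3-AKO and 0.521 CPM in Control.

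Igfbp3, the main carrier of IGFs in blood plasma, was mostly a fibroblast transcript here. Fibroblasts had 199.9 CPM in the LPCAT3-AKO library and 171 in the Control library, and held 86.2% of its UMIs in both. Macrophages had 5.46 CPM in LPCAT3-AKO and 4.99 CPM in Control and dendritic cells 4.44 in LPCAT3-AKO and 3.40 in Control. Among the fibroblast states, F3-high cells had 660.2 CPM in LPCAT3-AKO and 906 CPM in Control, cells with none of the lists 487 in LPCAT3-AKO and 381 in Control, and interstitial progenitors 139.9 in LPCAT3-AKO and 119.9 in Control. The ratio was 1.17 in all fibroblasts and 1.05 with states weighted alike, with opposite directions inside: 1.17 in interstitial progenitors, 1.28 in cells with none of the lists and 1.16 in cells with both, against 0.821 in committed preadipocytes (0.773 to 0.872) and 0.729 in F3-high cells (0.667 to 0.797). None of these passed the size rule, and by the 3 leading markers the direction turned in F3-high cells, with 450.3 CPM in LPCAT3-AKO and 435 CPM in Control, and in cells with both lists, with 276 CPM in LPCAT3-AKO and 285 CPM in Control. Endothelial cells had 56 Igfbp3 UMIs in LPCAT3-AKO and 84 in Control, or 74.4 CPM in LPCAT3-AKO and 110.0 CPM in Control, a ratio of 0.676 (0.473 to 0.959).

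Igfbp4, which in other systems restrains IGF action until the protease PAPP-A removes it, was shared by fibroblasts and macrophages. Fibroblasts had 918 CPM in the LPCAT3-AKO library and 862 in the Control library and held 74.3% of LPCAT3-AKO and 73.9% of Control UMIs of the gene, and macrophages had 331 CPM in LPCAT3-AKO and 326 CPM in Control and held 13.49% in LPCAT3-AKO and 15.1% in Control. In macrophages it followed the resident list as Igf1 did: resident cells had 468 CPM in LPCAT3-AKO and 430.3 CPM in Control, cells with 4 markers 203 in LPCAT3-AKO and 224 in Control, and Lyve1-low cells 46.0 in LPCAT3-AKO and 44.7 in Control. Dendritic cells had 19.7 CPM in LPCAT3-AKO and 12.46 CPM in Control. The shallower T cells had more, at 111 CPM in LPCAT3-AKO and 99.0 CPM in Control. NK cells had 13.8 CPM in LPCAT3-AKO and 49.6 CPM in Control, and mast cells 76.2 in LPCAT3-AKO and 16.5 in Control. In fibroblasts it was higher in interstitial progenitors (1099 CPM in LPCAT3-AKO and 968 CPM in Control) than in committed preadipocytes (598 in LPCAT3-AKO and 566 in Control). Mural cells, with only 25 cells in LPCAT3-AKO and 19 cells in Control, had 279 CPM in LPCAT3-AKO and 327 CPM in Control. Mural, NK and mast cells were too few to be compared between libraries. Of the other populations named for Igfbp4 in this paragraph, only endothelial cells passed the size rule. They had 111 UMIs in LPCAT3-AKO and 64 UMIs in Control, 147 CPM in LPCAT3-AKO and 83.8 CPM in Control, a ratio of 1.76 (1.28 to 2.43). The stricter gate on every class gave a log2 ratio of 0.13, against 0.81 here, and keeping the cells with several classes gave 0.09. Both settings could bring in cells with markers of other classes. With endothelial cells thinned to 2000 UMIs the log2 ratio of Igfbp4 was 1.22 and still passed.

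Igfbp5, a binding protein that sticks to extracellular matrix, marked the interstitial end of the fibroblasts. Interstitial progenitors had 4086 CPM in the LPCAT3-AKO library and 4544 in the Control library. Cells with both lists had 1430.5 in LPCAT3-AKO and 1387 in Control, F3-high cells 768 in LPCAT3-AKO and 811 in Control, and committed preadipocytes 639.6 in LPCAT3-AKO and 526 in Control. Cells with 0 to 2 markers of the Dpp4 list had 649.6 CPM in LPCAT3-AKO and 535 CPM in Control, and cells with 9 or 10 had 5432 CPM in LPCAT3-AKO and 6033 CPM in Control. Over all fibroblasts the levels were 2752 CPM in LPCAT3-AKO and 3472 CPM in Control, a ratio of 0.793 (0.787 to 0.798), and with states weighted alike the log2 ratio was -0.13 in place of -0.33. By state the ratio was 0.899 in interstitial progenitors and 0.78 in cells with none of the lists, and 1.22 in committed preadipocytes (1.17 to 1.26). By the 3 leading markers cells with none of the lists had 697 CPM in LPCAT3-AKO and 558 CPM in Control, the opposite direction.

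Epithelial and mural cells made Igfbp5 too. Luminal epithelial cells had 1575 UMIs in 188 LPCAT3-AKO cells and 1639 UMIs in 137 Control cells, or 378 CPM in LPCAT3-AKO and 603 CPM in Control, a ratio of 0.628 (0.586 to 0.673). It was the only member of 3 tested to pass the size rule in luminal cells, where 7.77% of all genes did and 3.18% were lower. The log2 ratio was -0.67, against -0.14 with a stricter gate and -0.30 with cells of several classes kept, and both settings ended the call. Thinned to 2000 UMIs it was -1.02, and with each cell weighing alike -0.66, and the call stayed. The fibroblast markers, of which a median of 4 of 10 were detected per luminal cell, summed to 494 CPM in LPCAT3-AKO and 402 CPM in Control there, and their part in the result was not tested. The number of Igfbp5 UMIs per Igfbp6 UMI was 13.02 in LPCAT3-AKO and 21.9 in Control luminal cells, against 0.712 in LPCAT3-AKO and 0.966 in Control fibroblasts. The same ratio was 7.97 in LPCAT3-AKO and 8.31 in Control endothelial-mural cells. In macrophages it was 0.602 in LPCAT3-AKO and 0.692 in Control, below that of fibroblasts, with intervals apart in both libraries. Macrophage Igfbp5 was 34.8 CPM in LPCAT3-AKO and 46.3 CPM in Control, against 29.8 CPM in LPCAT3-AKO and 24.9 CPM in Control dendritic cells. Those intervals overlapped in LPCAT3-AKO and were apart in Control. Macrophage Igfbp6 was 57.9 CPM in LPCAT3-AKO and 66.9 CPM in Control, against 36.8 CPM in LPCAT3-AKO and 52.1 CPM in Control dendritic cells. The part of free RNA in these levels was not tested. Mural cells had 624 CPM of Igfbp5 in LPCAT3-AKO and 575 CPM in Control and the basal epithelial cells 2533 in LPCAT3-AKO and 815 in Control.

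Igfbp6, which prefers IGF-2 over IGF-1, was the most fibroblast-bound of the members. Fibroblasts held 89.4% of its UMIs in the LPCAT3-AKO library and 91.2% in the Control library, with a UMI in 98.5% of LPCAT3-AKO and 99.0% of Control cells, and had 3865 CPM in LPCAT3-AKO and 3596 CPM in Control. Macrophages had 57.9 CPM in LPCAT3-AKO and 66.9 CPM in Control, dendritic cells 36.8 in LPCAT3-AKO and 52.1 in Control, and the shallower T cells 92.8 in LPCAT3-AKO and 84.2 in Control. By state, interstitial progenitors had 4833 CPM in LPCAT3-AKO and 4239.7 CPM in Control and committed preadipocytes 1719 in LPCAT3-AKO and 1317 in Control. The ratio was 1.07 over all fibroblasts and 1.16 with states weighted alike, and it lay above 1 in each of the 5 states: 1.14 in interstitial progenitors, 1.34 in cells with both lists, 1.31 in committed preadipocytes, 1.22 in F3-high cells, and 1.03 in cells with none of the lists, where the interval of 0.996 to 1.06 held 1. None passed the size rule.

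Igfbp7, a distant relative of the family that binds IGFs weakly and is a known product of blood vessels, had its highest levels in vessel cells. Endothelial-mural cells had 7022 CPM in the LPCAT3-AKO library and 7476 in the Control library, endothelial cells 5368 in LPCAT3-AKO and 5709 in Control, and mural cells 3349.9 in LPCAT3-AKO and 2651 in Control. The intervals of these 3 were apart in each library, and the order was the same in both. Endothelial-mural cells were also the deepest of the 3, and whether they include joined cells was not tested. Fibroblasts, with far more cells, held 51.2% of Igfbp7 UMIs in LPCAT3-AKO and 42.95% in Control. Endothelial cells gave 0.642% of all UMIs but held 7.40% of Igfbp7 UMIs in LPCAT3-AKO, and gave 0.696% but held 10.8% in Control. Endothelial-mural cells gave 1.51% but held 22.8% in LPCAT3-AKO, and gave 1.46% but held 29.6% in Control. Levels were slightly lower in the LPCAT3-AKO library, with a ratio of 0.94 (0.901 to 0.982) in endothelial and 0.939 (0.916 to 0.963) in endothelial-mural cells. Macrophages had 10.9 CPM in LPCAT3-AKO and 9.85 CPM in Control and dendritic cells 7.62 in LPCAT3-AKO and 5.10 in Control.

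In fibroblasts Igfbp7 was the 1 member of 8 that passed the size rule, while 2.18% of all tested genes passed it and 1.35% were higher. It stood at 487 CPM in the LPCAT3-AKO library and 312 in the Control library, from 27981 UMIs in LPCAT3-AKO and 17371 UMIs in Control, a ratio of 1.56 (1.53 to 1.59). The share of fibroblasts with a UMI was 64.6% in LPCAT3-AKO and 52.7% in Control, and 42.4% in LPCAT3-AKO and 30.3% in Control after thinning. Its level differed by state: F3-high fibroblasts had 1472 CPM in LPCAT3-AKO and 1529.5 CPM in Control, committed preadipocytes 1225 in LPCAT3-AKO and 1099 in Control, and interstitial progenitors 132 in LPCAT3-AKO and 98.7 in Control. With states weighted alike the levels were 430.0 CPM in LPCAT3-AKO and 363 CPM in Control, a ratio of 1.18, and the call was lost. The Control levels carried over to the LPCAT3-AKO state shares would by themselves give 415 CPM, against 312 CPM with the Control shares. Inside the states the ratio was 1.34 in interstitial progenitors, 1.42 in cells with both lists, 1.27 in cells with none, 1.11 in committed preadipocytes and 0.962 in F3-high cells (0.902 to 1.03). By the 3 leading markers F3-high cells had 1101 CPM in LPCAT3-AKO and 960.3 CPM in Control, below the 1219.9 CPM in LPCAT3-AKO and 1095.5 CPM in Control of committed preadipocytes.

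In T cells, 145 in LPCAT3-AKO and 114 in Control, Igfbp7 had 3 UMIs in LPCAT3-AKO and 12 UMIs in Control, a ratio of 0.204 (0.0369 to 0.755), so 1 member was higher (Igf1r) and 1 lower of 6 tested, where 9.48% of all genes passed the size rule, 3.81% higher and 5.66% lower. With a stricter gate the log2 ratio of Igfbp7 in T cells was 0.39, against -2.12 here. In these T cells NK cell markers summed to 419.7 CPM in LPCAT3-AKO and 1156 CPM in Control, and macrophage markers to 458 CPM in LPCAT3-AKO and 673 CPM in Control, and their part in the result was not tested. Among endothelial cells 2 of 8 members passed it (Igf1 and Igfbp4), against 7.14% of all genes (3.70% higher), and in endothelial-mural cells 1 of 8 (Igf1), against 4.72% (2.74% higher). No member of 2 tested passed it in dendritic cells, where 6.38% of genes did. In interstitial progenitors, cells with both lists, committed preadipocytes and F3-high cells none of 8 passed, where 1.67%, 3.48%, 2.31% and 7.13% of all genes did, and none of 6 in intermediate or Lyve1-low macrophages, where 7.25% and 2.00% did. In fibroblasts the median log2 ratio of the 8 members was 0.10, against -0.001 over the 6059 genes tested. In macrophages the median was 0.045 for the members and 0.03 for all genes, and in endothelial cells it was -0.09 for the members and 0.02 for all genes.

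Single fibroblasts sorted the members into sets that occurred together or apart, here with each cell thinned to 2000 UMIs. Igf1 was found in 49.5% of LPCAT3-AKO and 41.5% of Control cells with an Igfbp3 UMI, against 23.2% of LPCAT3-AKO and 19.1% of Control cells without one. With an Igfbp5 UMI the shares were 19.7% in LPCAT3-AKO and 16.3% in Control, against 46.3% in LPCAT3-AKO and 42.3% in Control without. Among cells with Igfbp7 the shares were 38.8% in LPCAT3-AKO and 35.2% in Control, against 20.2% in LPCAT3-AKO and 17.3% in Control without. With Igf1r they were close to those without it, at 28.9% in LPCAT3-AKO and 21.95% in Control, against 28.0% in LPCAT3-AKO and 22.8% in Control without. The states differ in these genes. Within interstitial progenitors alone Igf1 was found in 40.1% of LPCAT3-AKO and 31.7% of Control cells with Igfbp3. Without Igfbp3 the shares there were 16.3% in LPCAT3-AKO and 14.99% in Control. With Igfbp5 they were 15.4% in LPCAT3-AKO and 13.3% in Control, against 43.0% in LPCAT3-AKO and 44.5% in Control without. This gate spans cells with 6 to 10 Dpp4 list markers, and Igf1, Igfbp3 and Igfbp5 changed along that list. It therefore does not hold state constant, and the part of state differences in these contrasts was not tested. Across all fibroblasts Igfbp5 and Igfbp7 were found apart: Igfbp5 was found in 49.3% of LPCAT3-AKO and 49.7% of Control fibroblasts with Igfbp7, against 82.55% in LPCAT3-AKO and 86.5% in Control without. Committed preadipocytes did not show all of these contrasts. There Igfbp5 was found in 45.5% of LPCAT3-AKO and 42.2% of Control cells with Igfbp7, against 46.4% in LPCAT3-AKO and 48.6% in Control without, with overlapping intervals. Igf1 was found there in 32.5% of LPCAT3-AKO and 31.3% of Control cells with Igfbp7, against 33.9% in LPCAT3-AKO and 30.4% in Control without. With Igfbp5 it was found there in 25.5% of LPCAT3-AKO cells, against 38.8% without, and in 29.5% of Control cells, against 32.5% without, where the Control intervals overlapped. With Igfbp3 the contrast held there, at 44.5% in LPCAT3-AKO and 41.8% in Control, against 29.4% in LPCAT3-AKO and 28.2% in Control without. In resident macrophages, Igf1 was found in 54.0% of LPCAT3-AKO and 44.8% of Control cells with Igfbp4, against 44.7% in LPCAT3-AKO and 38.8% in Control without.

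Of 69 further genes of the pathway, 41 reached 20 CPM in fibroblasts, and 1 of them passed the size rule, or 2.44%, against 2.18% of all genes. That was Socs2, a growth hormone target that dampens the hormone's receptor, at 59.5 CPM in the LPCAT3-AKO library and 89.5 in the Control library, a ratio of 0.665. The growth hormone receptor Ghr was at 65.1 CPM in LPCAT3-AKO and 73.1 CPM in Control. Among the proteases that act on IGF binding proteins, Mmp2 had 1079 CPM in LPCAT3-AKO and 973 CPM in Control, Htra3 had 794 in LPCAT3-AKO and 652 in Control, Htra1 had 529 in LPCAT3-AKO and 474 in Control and the lysosomal Ctsd had 231 in LPCAT3-AKO and 214 in Control. Mmp2 was also a marker of the fibroblast gate, so its level there partly follows from the gate. The Igfbp4 protease Pappa was low, at 2.51 CPM in LPCAT3-AKO and 3.07 CPM in Control. Among receptors and carriers, Lrp1 had 643 CPM in LPCAT3-AKO and 549 CPM in Control, Igf2r (which clears IGF-2) had 77.6 in LPCAT3-AKO and 59.6 in Control, and the integrin chains Itgav and Itgb3 had 89.8 CPM in LPCAT3-AKO and 83.8 CPM in Control, and 48.4 CPM in LPCAT3-AKO and 55.5 CPM in Control. Igfbp1, the liver's insulin-regulated binding protein, had 0 UMIs in fibroblasts, macrophages, endothelial and luminal cells.

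Downstream of the receptors, the adaptor Grb10, an imprinted brake on insulin and IGF signalling, had 254 CPM in LPCAT3-AKO and 256 CPM in Control fibroblasts, Pik3r1 had 219 in LPCAT3-AKO and 250.0 in Control, and Irs2 had 98.1 in LPCAT3-AKO and 119.8 in Control. Txnip, a glucose-induced brake on glucose uptake, had 837 CPM in LPCAT3-AKO and 563 CPM in Control, a ratio of 1.49, just under 1.5. Foxo1 had 104 CPM in LPCAT3-AKO and 103 CPM in Control, Sesn1 had 38.5 in LPCAT3-AKO and 36.6 in Control, and Ccnd1 had 35.1 in LPCAT3-AKO and 35.7 in Control. Of the imprinted growth regulators, Cdkn1c had 147 CPM in LPCAT3-AKO and 137 CPM in Control, H19 had 72.6 in LPCAT3-AKO and 61.1 in Control, and Plagl1 had 30.2 in LPCAT3-AKO and 35.5 in Control, and the mRNA-binding Igf2bp2 had 8.45 in LPCAT3-AKO and 7.44 in Control. The CCN proteins, which carry an IGFBP-type domain, included Ccn1 at 292 CPM in LPCAT3-AKO and 435 CPM in Control, Ccn5 at 106 in LPCAT3-AKO and 87.3 in Control, Ccn3 at 47.9 in LPCAT3-AKO and 38.8 in Control and Ccn2 at 36.6 in LPCAT3-AKO and 38.3 in Control. The insulin-degrading enzyme Ide had 40.5 CPM in LPCAT3-AKO and 44.1 CPM in Control.

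Outside fibroblasts, none of the 26 pathway genes that reached 20 CPM in macrophages passed the size rule. In endothelial cells 6 of 37 did, or 16.2%, against 7.14% of all genes. Ccnd1, the cyclin that starts the cell cycle, had 384 CPM in LPCAT3-AKO and 199 CPM in Control, and the imprinted gene Mest had 104 CPM in LPCAT3-AKO and 31.4 CPM in Control. Tsc2 and Inpp5d were also higher, Tsc2 on 33 UMIs in LPCAT3-AKO and 14 UMIs in Control and Inpp5d on 25 UMIs in LPCAT3-AKO and 12 UMIs in Control. Irs2 was lower, on 9 UMIs in LPCAT3-AKO and 30 UMIs in Control, as was the PAPP-A inhibitor Stc1, at 81.0 CPM in LPCAT3-AKO and 122 CPM in Control. With cells thinned, 3 pathway genes passed. In luminal epithelial cells 2 of 29 passed, or 6.90%, namely the adaptor Grb14 at 94.9 CPM in LPCAT3-AKO and 51.1 CPM in Control and Itgav at 84.5 CPM in LPCAT3-AKO and 129 CPM in Control.

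Across 32 points (16 populations and states in 2 libraries), the genes whose log2 levels ran most like each member's were named among 6992 genes. The points share libraries, and the states share a parent population, so these correlations are descriptive. Igfbp6 ran with Mfap5, Htra3 and Ogn (Pearson's r of 0.991, 0.991 and 0.990), the first and last of them matrix genes and Htra3 a secreted protease. Igfbp3 ran with Fbln2, Serpinh1 and Slc43a3 (0.967, 0.958 and 0.957), and Igfbp5 with Nhsl1, Ltbp1 and Bmp1 (0.953, 0.945 and 0.939). Igfbp7 ran with Tril, Fzd4 and Cxcl12 (0.956, 0.951 and 0.945), and Igfbp4 with Rcn3, P4ha1 and Serpinb6a (0.946, 0.913 and 0.909). Igf1 ran with Pnp, Clmp and the complement gene C4b (0.917, 0.916 and 0.905). The receptors had looser company, with Itga9 and Hook3 for Igf1r (0.902 and 0.863) and Vamp5, Map4k3 and Trak1 for Insr (0.84, 0.835 and 0.831). Between members, Igf1 and Igfbp4 had an r of 0.866, and Insr and Igfbp6 had an r of -0.15.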

How the data were processed

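Subcutaneous fat stromal vascular fractions were measured in 1 LPCAT3-AKO and 1 Control library. The authors deposited raw UMI counts per gene and barcode as whole numbers. Seurat 4.10, Cell Ranger 6.1.2 and the mm10 build come from the submitters' processing notes; which step each served is not given in the sources used here. Genes were taken by deposited symbol, and of 40 symbols shared by several identifiers none is a member.

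Computation used Python 3.11.15, numpy 2.4.6, scipy 1.17.1, pandas 2.3.3 and matplotlib 3.10.9. Barcodes with 500 or more genes and at most 10% UMIs from mt- genes were kept, 24090 in all, the shallowest with 686 UMIs. Cells were gated by the number of listed markers detected. The gates were set after the matrices had been seen, and the members and lists were chosen with earlier results of these data known. Of the listed markers 1 is not in the files. State lists needed 6 of 10, 6 of 10 and 4 of 6 markers, resident macrophages 5 of 7, monocytes 3 of 6 and dividing cells 4 of 8. Counts were summed per population and divided by total UMIs (CPM). Intervals are 95%: exact Poisson for levels, Clopper-Pearson for shares and exact binomial for ratios; log2 ratios use CPM plus 1. They cover counting error only, and with 1 library a group no test across samples exists. Populations with 100 or more cells in both libraries were compared. Thinning to 2000 UMIs used a fixed seed. The size rule was run on simulated counts with known changes and counting error only. That run cannot show how often the rule errs when libraries vary.

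All members are named. Other genes named are, for each member at 50 CPM or more in some population, the 3 most correlated genes, and in each pathway list up to 4 by level in fibroblasts, taken from those past the size rule if any. Genes that this rule names but the text does not are not reported here. Ghr, Pappa, Igfbp1 and the pathway genes named in endothelial and luminal cells were added after their values were seen. Adipocyte, T cell and other marker lists served as checks only.

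Alternatives changed the cell filter, the gates, the treatment of cells with several classes, scaling, cell weighting, depth, state weighting, pseudocount and the size rule. The stricter gate raised the marker limit of every class. These limits also set mixed cells apart, so it was not a check on purer cells alone.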

Additional observations from a re-analysis of the deposited data

Results flagged for a closer look

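Several members moved in opposite directions between populations; with 1 library a group, these differences were not tested. Igfbp7 was higher in LPCAT3-AKO fibroblasts (ratio 1.56) and lower in LPCAT3-AKO T cells (ratio 0.204, on 3 UMIs in LPCAT3-AKO and 12 in Control). Igf1 was higher in interstitial progenitors (1.319), fibroblasts with none of the lists (1.505), fibroblasts with both lists (1.267) and committed preadipocytes (1.159), but lower in F3-high fibroblasts (0.907). Igfbp3 was higher in interstitial progenitors (1.166), in cells with none of the lists (1.277) and in cells with both (1.159), but lower in committed preadipocytes (0.821) and F3-high cells (0.729). Igfbp5 was higher in committed preadipocytes (1.217) and lower in interstitial progenitors (0.899) and in cells with none of the lists (0.78). The F3-high state held 172 LPCAT3-AKO and 101 Control cells. With states taken by 3 leading markers, the direction turned for Igf1 and Igfbp3 in F3-high cells and in cells with both lists, and for Igfbp5 in cells with none of the lists (697 CPM in LPCAT3-AKO and 558 CPM in Control).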

How the results depend on the processing

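No paired analysis was possible because each group has 1 library. Counts of members past the size rule moved as follows. In fibroblasts 1 (Igfbp7) became 0 with states weighted alike, and 3 with the ratio limit lowered to a log2 of 0.32 (Igf1 and Igfbp7 higher, Igfbp5 lower). With that ratio macrophages gave 1 in place of 0 (Igfbp5 lower) and dendritic cells 1 in place of 0 (Igfbp6 lower); a stricter gate gave dendritic cells 4, all lower. In endothelial cells 2 became 1 (Igfbp4) when thinned, although the log2 ratio of Igf1 in endothelial cells was then 1.64 in place of 1.43, and 3 with the lowered ratio limit (Igfbp3 lower added). In endothelial-mural cells 1 became 0 when thinned and 0 at 50 CPM, and 2 with no level minimum (Igf2 added). In luminal epithelial cells 1 became 0 with cells of several classes kept and 4 with each cell weighing alike. In T cells 2 became 1 with each cell weighing alike, 1 when thinned, 0 at 50 CPM and 3 with a stricter gate (Igfbp4, Igfbp5 and Igfbp6 higher), and with cells of several classes kept Igfbp4 passed in place of Igf1r. Among pathway genes, fibroblasts gave 2 with median-of-ratios scaling and 2 when thinned, in place of 1; endothelial cells gave 3 when thinned, in place of 6; luminal cells gave 1 with median-of-ratios scaling, in place of 2. The causes were not tested. The log2 ratio of Igf1 in endothelial-mural cells was -0.02 (-0.016) when thinned, and the log2 ratio of Igfbp7 in T cells was 0.39 with a stricter gate.

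Equal counts could hide other members: the stricter gate called Igfbp5 and Igfbp6 lower in endothelial cells and Igfbp6 higher in luminal cells. Of 41 log2 ratios, 31 kept their direction when thinned, 33 with each cell weighing alike, 36 with a stricter gate and 37 with cells of several classes kept. With median-of-ratios scaling 39 did, and its largest shift of the median was -0.08 on the log2 scale, in T cells. Leaving out the cell with the most UMIs of a member, added after seeing the data, kept 39 and changed no count. Values moved beyond their counting interval were 14 with a stricter gate, 13 with cells of several classes kept and 10 when thinned. The largest shift was 2.51 on the log2 scale, with a stricter gate. Small numbers of cells limit the mast, mural and basal epithelial populations, and low depth per cell limits mast, mural and T cells. Protein sequences of the members were planned but not described, as no reference sequence was used here.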

Other observations

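In the basal epithelial gate, 6 cells a library, Igfbp5 had 169 UMIs in LPCAT3-AKO and 113 in Control, Igfbp3 had 28 in LPCAT3-AKO and 13 in Control, and Igfbp4 had 12 in LPCAT3-AKO and 48 in Control. Of the 28 Igfbp3 UMIs 27 lay in 1 cell. Dividing fibroblasts, 55 in LPCAT3-AKO and 12 in Control, had 614 CPM of Igfbp7 in LPCAT3-AKO and 284 in Control, 367.5 CPM of Igfbp4 in LPCAT3-AKO and 567 in Control, and 707 CPM of Igfbp5 in LPCAT3-AKO and 1148 in Control. In mast cells, 59 in LPCAT3-AKO and 68 in Control, Igfbp7 had 17 UMIs in the LPCAT3-AKO library, 15 of them in 1 cell, and 0 in the Control library, where the floor of 3 counts is 24.7 CPM and the exact Poisson upper limit 30.4 CPM.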
